A study of Mus musculus with 56 samples.

Results

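Phox2a, Hand1, Hand2, Gata2, Gata3, Insm1, Tfap2b and Isl1, 8 genes for transcription factors of the chromaffin cell lineage, were followed through the adrenal glands of mice with a conditional knockout of Znrf3. They were taken by symbol and matched to Ensembl identifiers, 8 of the 55487 identifiers in the count tables of females and males and 8 of the 55414 in the table of a surgery series. RNA of the whole gland was sequenced after poly(A) selection in 56 C57BL/6J animals, 4 in each of 14 groups. Conditional knockout (cKO) animals carried floxed Znrf3 alleles with SF1-Cre, and their controls were littermates negative for SF1-Cre. Females were taken at 6, 9 or 12 weeks and males at 4, 6 or 9 weeks, as cKO and as control. A further 4 male cKO animals castrated at week 4 were set against 4 male cKO animals given sham surgery at week 4, all at 9 weeks. Both surgery groups mixed reporter alleles, with eYFP, mTmG or no reporter. The study set out to find what accompanies the passage of the cKO gland from overgrowth to regression.

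Chromaffin cells are the cells of the adrenal medulla that make, store and release catecholamines. They descend from the neural crest, partly by way of Schwann cell precursors, and they share a set of transcription factors with sympathetic neurons. In mice, loss of single members of this set leaves the medulla small or short of catecholamine enzymes. SF1-Cre deletes in the steroid-producing cells of the cortex, which have another embryonic origin than the medulla. In whole-gland RNA, fewer chromaffin cells, less RNA per chromaffin cell and more RNA from the other cells of the gland cannot be told apart.

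Phox2a (chromosome 7, 101818313 to 101822726, GRCm38) encodes a homeodomain factor that binds the promoter of the dopamine beta-hydroxylase gene. Hand1 (chromosome 11, 57828705 to 57832818) and Hand2 (chromosome 8, 57320983 to 57324633) encode basic helix-loop-helix factors, and Hand2 is needed for the noradrenergic state of sympathoadrenal cells. The zinc finger factors of the GATA family are Gata2 (chromosome 6, 88193891 to 88207032) and Gata3 (chromosome 2, 9857078 to 9890034). Mice without Gata3 die as embryos for lack of noradrenaline. Insm1 (chromosome 2, 146221921 to 146225020) encodes a zinc finger factor of neuroendocrine cells, Tfap2b (chromosome 1, 19208914 to 19238576) a factor of the AP-2 family, and Isl1 (chromosome 13, 116298281 to 116309689) a LIM homeodomain factor.

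The upstream sequences of 4 members are shown as examples of windows that hold motifs of the families to which the members themselves belong. They are the 250 bases before the RefSeq start of each gene (GRCm38.p6), read 5′ to 3′ on the strand of the gene, with motif matches in capitals. The Hand2 window is chr8:57320733-57320982 on the plus strand, Phox2a chr7:101818063-101818312 on the plus strand, Gata3 chr2:9878601-9878850 on the minus strand and Isl1 chr13:116309689-116309938 on the minus strand.
Hand2: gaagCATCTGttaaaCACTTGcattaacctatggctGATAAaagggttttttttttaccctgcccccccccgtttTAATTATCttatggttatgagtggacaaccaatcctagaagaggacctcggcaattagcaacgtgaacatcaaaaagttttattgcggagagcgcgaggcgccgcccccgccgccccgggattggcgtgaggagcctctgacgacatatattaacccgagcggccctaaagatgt
Phox2a: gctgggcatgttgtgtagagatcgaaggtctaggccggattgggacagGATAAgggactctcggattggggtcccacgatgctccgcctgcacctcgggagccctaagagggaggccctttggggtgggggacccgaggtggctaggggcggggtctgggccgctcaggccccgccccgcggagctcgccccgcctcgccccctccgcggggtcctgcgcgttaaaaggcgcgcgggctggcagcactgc
Gata3: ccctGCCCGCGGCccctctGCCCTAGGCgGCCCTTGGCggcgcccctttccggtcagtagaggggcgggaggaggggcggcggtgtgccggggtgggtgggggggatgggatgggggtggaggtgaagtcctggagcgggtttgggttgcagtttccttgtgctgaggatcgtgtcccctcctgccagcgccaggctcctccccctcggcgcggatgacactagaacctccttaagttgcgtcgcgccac
Isl1: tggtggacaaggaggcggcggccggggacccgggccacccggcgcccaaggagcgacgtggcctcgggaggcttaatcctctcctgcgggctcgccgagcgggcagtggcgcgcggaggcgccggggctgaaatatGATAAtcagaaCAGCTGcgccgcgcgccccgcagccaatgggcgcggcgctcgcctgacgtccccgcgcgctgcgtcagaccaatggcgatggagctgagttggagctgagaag

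The motifs searched were the E-box CANNTG of basic helix-loop-helix factors, GATAA of GATA factors, the homeodomain core TAATTA and GCCNNNGGC of AP-2 factors, each on both strands. Hand2 held 2 E-boxes, 2 GATA matches and 1 homeodomain core, which overlaps the second GATA match (TTATC, the reverse complement). Phox2a held 1 GATA match, Isl1 held 1 GATA match and 1 E-box, and Gata3 held 3 AP-2 matches. Of the windows not shown, that of Tfap2b held 1 E-box and 1 of the 2 windows of Gata2 held 1 AP-2 match, while the other held none of the 4 motifs. RefSeq windows were found for 6 of the 8 members, 7 windows in all. Of these, 3 held an E-box, 3 the GATA motif, 1 the homeodomain core and 2 the AP-2 motif. The windows of Gata3 and Tfap2b, and the window of Gata2 with the AP-2 match, lie inside the gene spans given above. Among 32851 mouse windows of the same length, 66.2% held an E-box, 22.6% the GATA motif, 4.84% the homeodomain core and 13.7% the AP-2 motif. These matches describe letters in the window and were not tested as sites.

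Total counts per library ran from 35694264 to 51604620 in females, from 12431963 to 35531016 in males and from 25145519 to 42411447 in the surgery series. In the surgery series sham replicate 1 stood apart, with 9.87% of its counts from mitochondrial genes, against 2.41% to 4.44% in the other 7 libraries, and 93.95% of its counts in genes with a symbol in the annotation, against 99% to 99.87%. Levels are normalised CPM, that is counts scaled to a common library total and corrected for composition within a table, so levels were not compared across tables. Of 6 chromaffin markers (Th, Dbh, Pnmt, Slc18a1, Chga and Chgb) none was at 0 in any group. Their summed level in females at 6 weeks was 231 to 448 CPM in cKO glands and 3691 to 4679 CPM in control glands. The presence of these markers does not show which cells the counts of the members come from. All 6 are also among the 12 catecholamine and granule genes used below. The deleted gene, Znrf3, was not lower in cKO libraries: it averaged 76.7 ± 19.5 CPM in cKO females at 6 weeks and 36.6 ± 2.85 CPM in control females (SD, n = 4 each), and a count over the whole gene does not check the deletion.

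All 8 members were lower in cKO glands than in control glands at every age in both sexes. In each of the 6 comparisons the 4 cKO libraries lay below the 4 control libraries for every member, as they did for 17.9%, 19.6% and 15.4% of all tested genes in females at 6, 9 and 12 weeks and 12.7%, 13.9% and 12.1% in males at 4, 6 and 9 weeks. All 8 members passed edgeR's quasi-likelihood test at an adjusted p under 0.05 (Benjamini-Hochberg over all genes tested). The share of all tested genes called lower was 19.1% in females at 6 weeks, 20% at 9 weeks and 16% at 12 weeks, and 12.9% in males at 4 weeks, 11.9% at 6 weeks and 13.6% at 9 weeks. The median log2 fold change of the 8 members was -3.22 in females at 6 weeks, -2.68 at 9 weeks and -2.89 at 12 weeks, and -2.69 in males at 4 weeks, -3.02 at 6 weeks and -2.41 at 9 weeks. The median over all genes was 0.01 in females at 6 weeks, -0.02 at 9 weeks and -0.01 at 12 weeks, and 0.01, -0.01 and -0.01 in males at 4, 6 and 9 weeks. All 8 members passed the filter on low counts in every table.

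**Figure D1:**
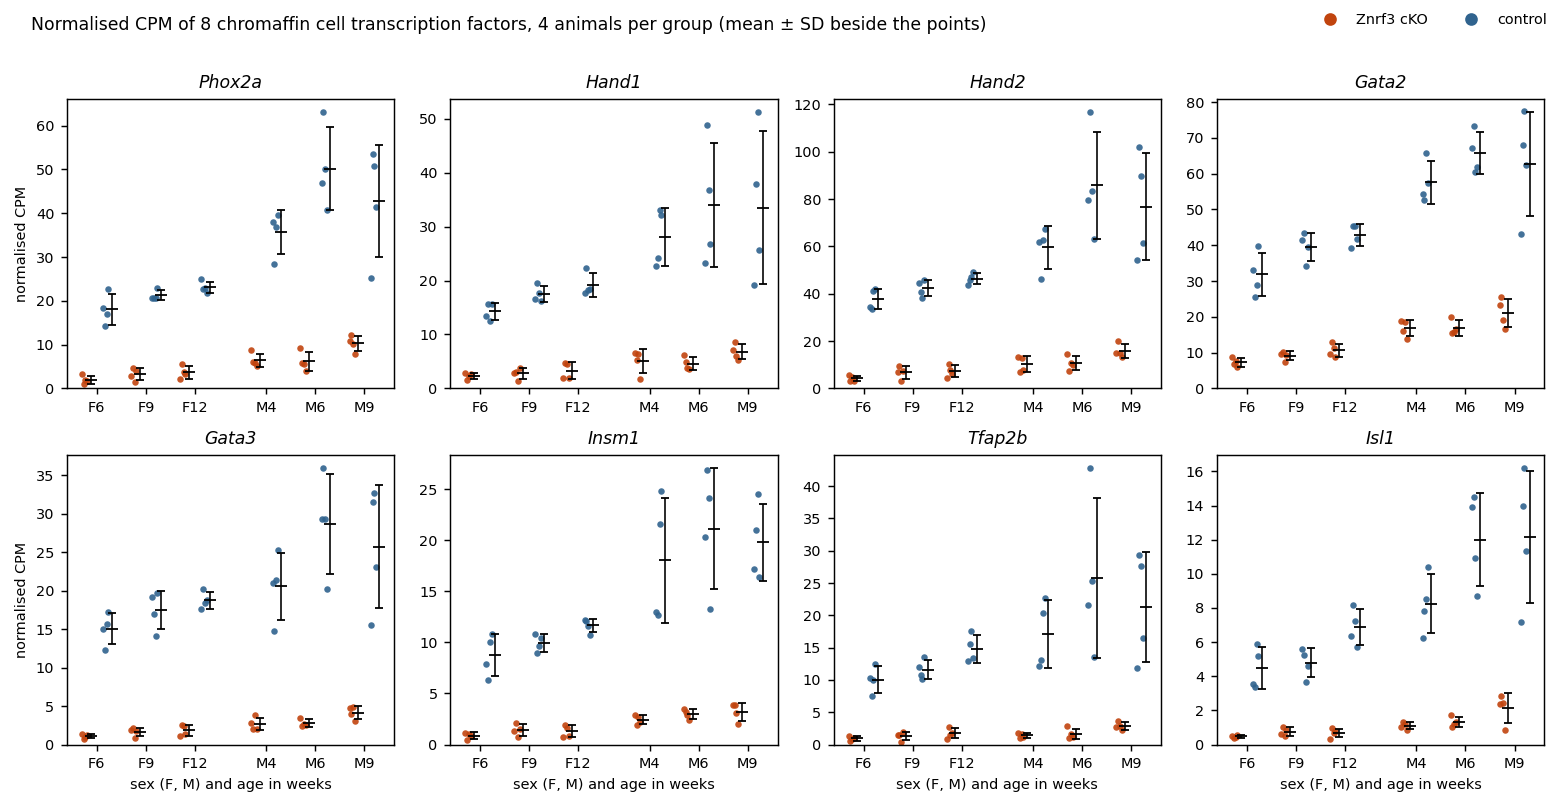
Normalised CPM of each member by library, in females (F) at 6, 9 and 12 weeks and males (M) at 4, 6 and 9 weeks, with Znrf3 cKO left of control at each age, 1 point per animal and the mean ± SD beside the 4 points. For every member the cKO points sit below the control points at each age, as for Hand2 at 3.17 to 5.61 CPM in cKO females at 6 weeks and 33.5 to 41.8 CPM in control females.

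Among the homeodomain and basic helix-loop-helix factors, Hand2 had the highest level. It measured 5.61, 3.17, 4.72 and 3.33 CPM in cKO females at 6 weeks, against 34.5, 33.5, 41.0 and 41.8 CPM in control females. The lowest control was thus several times the highest cKO library, and the log2 fold change was -3.17 ± 0.26 (SE; edgeR adjusted p = 3.39e-09). In males at 6 weeks Hand2 measured 14.6, 7.49, 10.9 and 10.02 CPM in cKO glands, against 79.7, 116.7, 83.5 and 63.1 CPM in control glands. Its log2 fold change there was -3.00 ± 0.25, and over the 6 comparisons its mean level in cKO glands was 11.2% to 20.6% of that in controls.

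Phox2a measured 3.20, 0.978, 1.86 and 1.81 CPM in cKO females at 6 weeks, against 18.3, 14.3, 16.97 and 22.6 CPM in control females. The groups stood far apart, with cKO replicate 1 the highest of its group and cKO replicate 2 the lowest, as they were for 7 of the 8 members each. The log2 fold change was -3.21 ± 0.32, and the smallest of the 6 was -2.06 ± 0.23 in males at 9 weeks (edgeR adjusted p = 8.56e-07). There Phox2a measured 10.9, 12.1, 10.3 and 7.87 CPM in cKO males, against 25.1, 53.5, 50.9 and 41.4 CPM in control males. Control replicate 1 was the lowest control in that group for 7 of the 8 members, and it still lay above every cKO library.

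Hand1 kept 13.5% to 20.2% of its control level over the 6 comparisons. In males at 4 weeks it measured 6.63, 5.36, 6.34 and 1.75 CPM in cKO glands, against 22.8, 24.2, 33.1 and 32.2 CPM in control glands, and the last cKO library stood below the other 3. Isl1 was the lowest member in CPM, at 0.478 ± 0.080 CPM in cKO females at 6 weeks and 4.497 ± 1.22 CPM in control females (SD, n = 4 each), a log2 fold change of -3.23 ± 0.27. Over the 6 comparisons Isl1 kept 9.87% to 17.4% of its control level.

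Gata2, a GATA factor that endothelium and mast cells are also known to express, kept 22.8% to 33.7% of its control level over the 6 comparisons and had the smallest fold change of the 8 members in each of them. In females at 6 weeks it measured 8.74, 6.79, 7.53 and 5.96 CPM in cKO glands, against 33.1, 25.7, 28.98 and 39.8 CPM in control glands. The groups did not overlap, and the log2 fold change was -2.14 ± 0.15 (edgeR adjusted p = 3.41e-10). In males at 9 weeks, where the change was smallest, Gata2 measured 23.2, 25.5, 19.1 and 16.7 CPM in cKO glands, against 43.2, 67.9, 77.4 and 62.4 CPM in control glands, a log2 fold change of -1.57 ± 0.15.

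Gata3 kept 7.31% to 16.2% of its control level and had the largest fold change of the 8 members in females at all 3 ages. At 6 weeks it measured 1.40, 0.763, 0.969 and 1.28 CPM in cKO females, against 15.1, 12.3, 15.7 and 17.2 CPM in control females. The groups did not overlap, and the log2 fold change was -3.77 ± 0.26 (edgeR adjusted p = 4.52e-10). In females at 12 weeks Gata3 measured 1.10, 2.53, 2.35 and 1.37 CPM in cKO glands, against 17.7, 20.3, 18.4 and 18.8 CPM in control glands, a log2 fold change of -3.36 ± 0.25. The exons of Gata3 overlap those of 9230102O04Rik on the same strand by 77 bases and those of the antisense gene Gm13256 by 155 bases. Phox2a overlaps Inppl1 by 95 bases and Hand2 overlaps Hand2os1 by 461 bases, both on the opposite strand. The kit keeps the strand, but no source used here gives the strand setting of the counting, so small parts of these 3 counts may belong to the neighbours.

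Tfap2b had the largest fold change of the 8 members in males at all 3 ages. At 6 weeks it measured 2.84, 0.944, 1.57 and 1.17 CPM in cKO males, against 21.6, 42.7, 25.3 and 13.5 CPM in control males. Control replicate 2 was the highest control of that group for all 8 members and control replicate 4 the lowest for 6 of them. The log2 fold change was -3.999 ± 0.39 (edgeR adjusted p = 7.9e-08). In males at 4 weeks Tfap2b measured 1.72, 0.970, 1.70 and 1.24 CPM in cKO glands, against 12.2, 13.1, 20.4 and 22.6 CPM in control glands, a log2 fold change of -3.57 ± 0.38.

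Insm1 averaged 0.853 ± 0.328 CPM in cKO females at 6 weeks and 8.79 ± 2.05 CPM in control females (SD, n = 4 each), a log2 fold change of -3.37 ± 0.32. In males at 6 weeks it averaged 2.99 ± 0.465 CPM in cKO glands and 21.1 ± 5.89 CPM in control glands, a log2 fold change of -2.82 ± 0.26. Over the 6 comparisons it kept 9.7% to 16.3% of its control level.

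**Figure D2:**
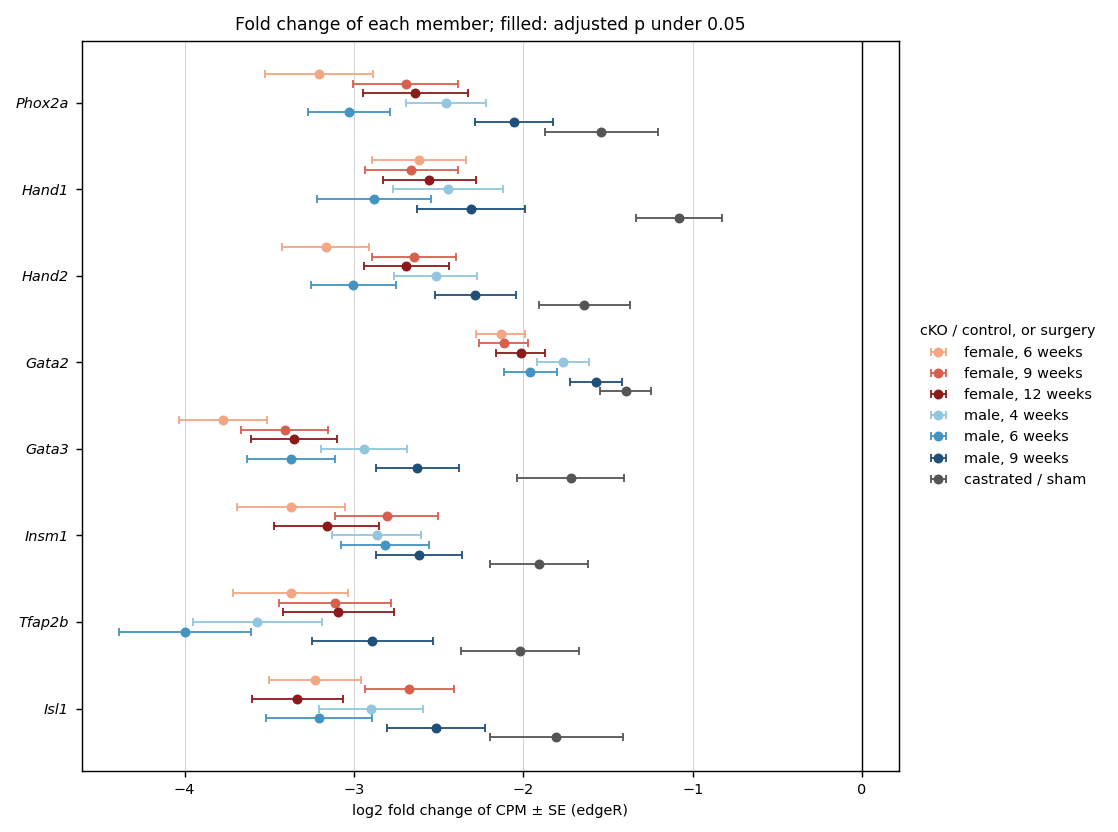
Log2 fold change of each member (horizontal axis, ± SE from edgeR) in the 6 comparisons of cKO with control and in castrated against sham-operated cKO males, 1 colour per comparison, filled where the adjusted p was under 0.05. All points lie left of 0; Gata2 is nearest to 0 in each genotype comparison (-2.14 to -1.57), and the castration points lie between -2.02 and -1.08.

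Male libraries carry numbers up to 24 or above 24, and these ranges were split unevenly between the genotypes. At 6 weeks all cKO libraries had numbers up to 24 and all controls numbers above 24, so that range and genotype cannot be told apart there. At 9 weeks each range held 2 cKO and 2 control libraries, and every member was lower in cKO within each. At 4 weeks the range up to 24 held 4 cKO libraries and 1 control, and every member was again lower in cKO. At 9 weeks Gata2 averaged 24.3 CPM in cKO and 55.6 CPM in control libraries with numbers up to 24, and 17.9 CPM in cKO and 69.9 CPM in control libraries above 24. With numbers up to 24 only, Hand1 at 9 weeks was no longer called (log2 fold change -1.87, edgeR adjusted p = 0.0509), with 2 libraries per group.

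Marker lists of other cell types moved with genotype beside the members, and their part in the result was not tested. Of 5 Schwann and sustentacular cell markers 4 were lower in females at 6 weeks, where their summed level was 5.50 to 7.35 CPM in cKO and 10.9 to 14.9 CPM in control glands. All 5 sympathetic neuron markers were lower there too, at 4.29 to 6.91 CPM in cKO and 22.8 to 40.9 CPM in control glands. Of 5 macrophage markers 3 were higher, at 268 to 605 CPM in cKO and 165 to 302 CPM in control glands. Of 5 fibroblast and capsule markers 4 were lower, at 192 to 346 CPM in cKO and 443 to 547 CPM in control glands, and 2 to 5 were lower in each of the other 5 comparisons. Of 6 endothelial markers 5 were lower and 1 higher, at 678 to 746 CPM in cKO and 745 to 822 CPM in control glands. In males at 6 weeks 0 endothelial markers were lower and 3 higher, at 1244 to 1432 CPM in cKO and 809 to 1009 CPM in control glands, while all 8 members were lower. The 6 cortical markers summed to 41240 to 46790 CPM in cKO and 39090 to 50370 CPM in control females at 6 weeks. Of 6 T cell and innate lymphoid cell markers 0 were lower and 0 to 3 higher in each of the 6 comparisons. In males at 9 weeks 3 were higher, at 24.5 to 65.1 CPM in cKO and 10.9 to 13.8 CPM in control glands. None of these markers was at 0 in all libraries of those groups. Liver markers (Alb, Apoa1 and Ttr) were high in some cKO libraries: all 3 were called higher in females at 12 weeks, where their sum was 0.0536 to 329 CPM in cKO and 0.0551 to 0.197 CPM in control glands, and 2 were called higher in males at 9 weeks.

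The 12 genes of catecholamine synthesis, transport and granules were taken as products of the cells in which the members act. They were Th, Ddc, Dbh, Pnmt, Slc18a1, Slc18a2, Cyb561, Chga, Chgb, Scg2, Npy and Pcsk1n. All 12 were lower in cKO glands in each of the 6 comparisons, and the median log2 fold change was -3.24 in females at 6 weeks, near the -3.22 of the members. Their geometric mean in cKO glands was 11% to 19% of the control level. The 12 genes did not fall alike: over the 6 comparisons Cyb561 kept 42.1% to 59.7% of its control level and Pnmt 2.06% to 12.3%. To see which members departed from the mean fall of the 12, each was tested again in a further edgeR fit. Its library size was the geometric mean of the 12 genes, and it was added after the data were seen. Relative to these genes most of the genome was called higher, at 95% of all tested genes in females at 6 weeks, 95.3% at 9 weeks and 95% at 12 weeks, and at 93.2%, 96.4% and 96.3% in males at 4, 6 and 9 weeks. Few genes were called lower, at 0.370%, 0.231% and 0.284% in females at 6, 9 and 12 weeks and 0.234%, 0.0995% and 0.0702% in males at 4, 6 and 9 weeks. With most genes called, the Benjamini-Hochberg adjustment hardly raises p in this fit. Its adjusted p-values thus correct little for the number of members and comparisons tested. Of the 8 members, 5 in females at 6 weeks and 6 in each of the other 5 comparisons were called neither higher nor lower relative to the 12 genes.

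Gata2 was called higher relative to the 12 genes in every comparison. It stood at 39.4%, 58.1%, 43.7% and 35.7% of the geometric mean in cKO females at 6 weeks, against 22.4%, 19.7%, 20.8% and 22.5% in control females. The groups did not overlap there or in any of the other 5 comparisons. The log2 change of the ratio was 1.05 ± 0.24 in females at 6 weeks (edgeR adjusted p = 0.000127), 0.86 ± 0.24 at 9 weeks and 0.79 ± 0.24 at 12 weeks. In males it was 0.69 ± 0.26 at 4 weeks (adjusted p = 0.0115 by edgeR), 1.22 ± 0.26 at 6 weeks and 1.00 ± 0.26 at 9 weeks. With Chga, Chgb and Dbh alone as the denominator Gata2 stayed called in all 6 comparisons, and with library numbers up to 24 only it was not called in males at 4 weeks (0.75, adjusted p = 0.2 by edgeR), where 1 control is left. Mast cell markers, of a cell type that also expresses Gata2, summed to 0.581 to 2.84 CPM in cKO females at 6 weeks and 1.23 to 29.3 CPM in control females. All 4 tested were called lower there, but 0 in females at 9 or 12 weeks, and 1, 2 and 0 in males at 4, 6 and 9 weeks. In females at 9 weeks their sum was 1.82 to 9.29 CPM in cKO and 2.14 to 9.30 CPM in control glands. The part of mast cells and endothelium in the ratio was not tested.

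Gata3 went the other way in females. It stood at 6.53% ± 0.85 of the geometric mean in cKO females at 6 weeks and at 10.2% ± 0.84 in control females (SD, n = 4 each), without overlap, and the log2 change of the ratio was -0.64 ± 0.25 (edgeR adjusted p = 0.0142). It was -0.53 ± 0.25 at 9 weeks and -0.63 ± 0.24 at 12 weeks (adjusted p = 0.039 and 0.0149 by edgeR). With Chga, Chgb and Dbh as the denominator all 3 lost the call, at -0.43, -0.36 and -0.51 (adjusted p = 0.133, 0.2 and 0.0721 by edgeR). At 9 weeks the call was also lost without cKO replicate 4 (-0.45), control replicate 1 (-0.42) or control replicate 4 (-0.51), and at 12 weeks without control replicate 2 (-0.54). Without a filter on low counts all 3 were lost (adjusted p = 0.0799, 0.152 and 0.0855 by edgeR), and in a fit of only the groups compared that of 9 weeks was lost. In males Gata3 was not called relative to the 12 genes at any age. The part of other cell types in the ratios of Gata3 was not tested. Tfap2b was lower relative to the 12 genes in males at 4 weeks, at 3.32% ± 0.48 in cKO and 7.51% ± 2.23 in control glands (SD, n = 4 each; log2 change -1.19 ± 0.33, adjusted p = 0.000845 by edgeR), and with library numbers up to 24 only, where 1 control is left, it was not called (-0.73, adjusted p = 0.25 by edgeR). At 6 weeks its ratio changed by -0.80 ± 0.33 (adjusted p = 0.0207 by edgeR), which was not called with Chga, Chgb and Dbh as denominator (-0.59), with the range of library numbers in the fit (-0.46), without a filter (adjusted p = 0.0617 by edgeR) or without cKO replicate 2 (-0.62). Hand1 in females at 6 weeks (0.50 ± 0.24, adjusted p = 0.0482) and Phox2a in males at 9 weeks (0.56 ± 0.27, adjusted p = 0.0425) were called higher by edgeR. Each call was lost without a filter, with a filter of CPM 5 and in a fit of only the groups compared, and also without any of several single libraries, among them control replicate 3 of the group in both cases.

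**Figure D3:**
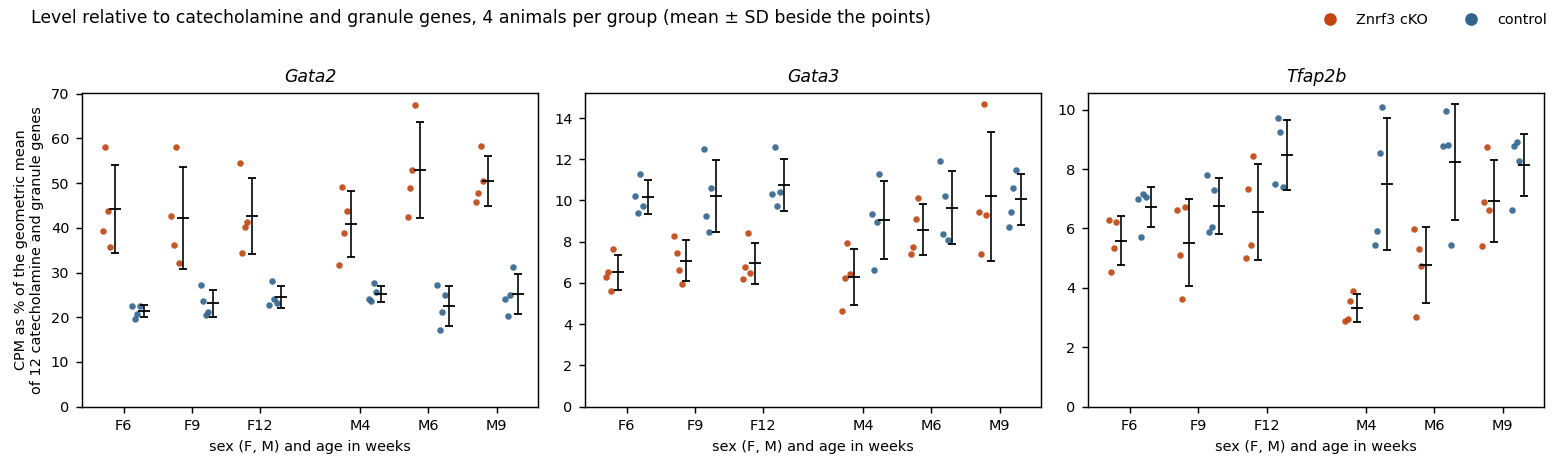
CPM of Gata2, Gata3 and Tfap2b as a percentage of the geometric mean of 12 catecholamine and granule genes, by library, with Znrf3 cKO left of control at each age and the mean ± SD beside the 4 points. Gata2 sits higher in all cKO libraries than in the controls of the same age, Gata3 sits lower in cKO females, and Tfap2b sits lower in cKO males at 4 weeks.

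**Figure D4:**
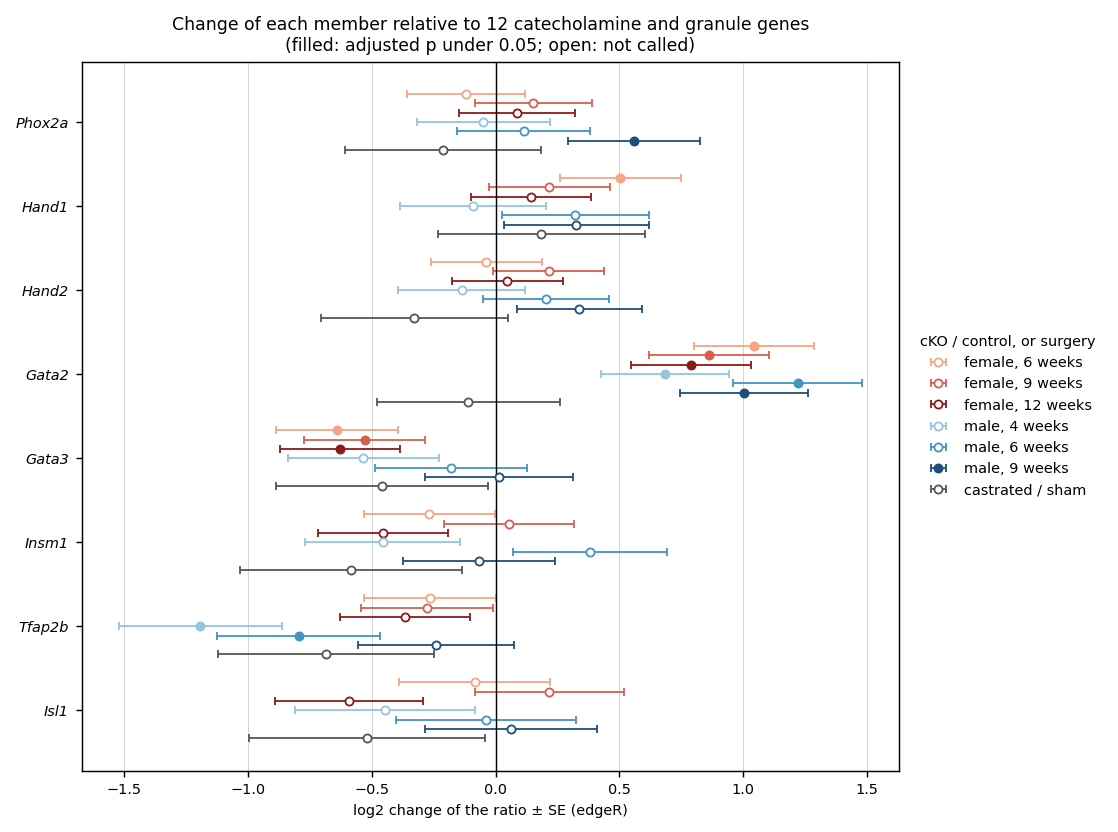
Log2 change of each member relative to the 12 catecholamine and granule genes (horizontal axis, ± SE from edgeR), 1 colour per comparison, filled where the adjusted p was under 0.05. Gata2 is filled and right of 0 in all 6 genotype comparisons (0.69 to 1.22), and no member is filled for castrated against sham-operated males.

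Because CPM of genes of different length cannot be compared, the order of the members was read from CPM per kilobase of merged exons. In control glands Hand2 came first in all 6 groups, followed by Phox2a, Hand1 and Gata2, and Isl1 was last. In control females at 6 weeks the levels were 16.04 ± 1.85 CPM per kilobase for Hand2, 8.87 ± 1.72 for Phox2a, 7.17 ± 0.795 for Hand1, 5.90 ± 1.12 for Gata2 and 3.79 ± 0.517 for Gata3 (SD, n = 4). Insm1 stood at 2.84 ± 0.66, Tfap2b at 1.59 ± 0.32 and Isl1 at 1.14 ± 0.31 CPM per kilobase. The libraries of Phox2a and Hand1 overlapped there, as did those of Hand1 and Gata2, Gata3 and Insm1, and Tfap2b and Isl1. In cKO females at 6 weeks the order was Hand2 at 1.79 ± 0.50 CPM per kilobase, Gata2 at 1.34 ± 0.22, Hand1 at 1.17 ± 0.29 and Phox2a at 0.965 ± 0.453. By merged exons Gata2 held rank 2 or 3 in every cKO group and rank 4 in every control group, and in cKO groups its libraries overlapped with those of the next member. The order depends on the length used: with the longest transcript in place of merged exons, Gata2 came before Hand1 and Isl1 before Tfap2b in 5 of the 6 control groups each. Gata2 then came first, before Hand2, in cKO females at 6 weeks (2.03 against 1.79 CPM per kilobase of longest transcript) and in cKO males at 4 and 6 weeks.

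Few differences of the members between ages passed the test. In control females all 8 had a positive log2 fold change at 9 against 6 weeks (0.09 to 0.31) and at 12 against 6 weeks (0.30 to 0.61), and 0 were called by edgeR at either age. Unadjusted p was under 0.05 for 1 and 2 of them, DESeq2 also called 0, and 0% and 0.0912% of all genes were called higher. In control males all 8 were positive at 6 against 4 weeks (0.19 to 0.60) and at 9 against 4 weeks (0.12 to 0.56). There edgeR and DESeq2 called 0, unadjusted p was under 0.05 for 3 and 1, and 0.0410% and 0.913% of all genes were called higher.

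In cKO females at 12 against 6 weeks all 8 members were positive, and Gata2 was called higher, with 6.03% of all genes called higher. Gata2 measured 9.64, 12.9, 11.2 and 8.76 CPM at 12 weeks and 8.74, 6.79, 7.53 and 5.96 CPM at 6 weeks, a log2 fold change of 0.55 ± 0.14 (edgeR adjusted p = 0.0187). The lowest library at 12 weeks lay just above the highest at 6 weeks. DESeq2 called 4 members there, and leaving out single libraries gave 0 to 4, with 0 without cKO replicate 2 at 12 weeks or cKO replicate 4 at 6 weeks. At 9 against 6 weeks edgeR and DESeq2 called 0 in cKO females, with an unadjusted p under 0.05 for 6 members and 0.799% of all genes called higher; without cKO replicate 3 at 9 weeks 1 was called.

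In cKO males at 9 against 4 weeks 5 members were called higher (Phox2a, Hand2, Gata3, Tfap2b and Isl1), against 20.8% of all genes. Tfap2b measured 2.75, 3.68, 2.86 and 2.2 CPM at 9 weeks and 1.72, 0.970, 1.70 and 1.24 CPM at 4 weeks (log2 fold change 1.00 ± 0.39, edgeR adjusted p = 0.0434). Isl1 measured 2.39, 2.83, 2.43 and 0.825 CPM at 9 weeks and 1.005, 1.33, 1.17 and 0.876 CPM at 4 weeks (0.95 ± 0.32, adjusted p = 0.0198 by edgeR), so the groups of Isl1 overlapped through cKO replicate 4 at 9 weeks. These calls rest on single libraries: leaving out each in turn gave 0 to 4 called members, with 0 without cKO replicate 4 at 4 weeks or without cKO replicate 1, 2 or 3 at 9 weeks. At 6 against 4 weeks edgeR and DESeq2 called 0 members in cKO males, 0 had an unadjusted p under 0.05, and 7.53% of all genes were called higher.

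In the contrasts tested, the effect of genotype on the members was not shown to change with age. Each later age was set only against the youngest. The step from 6 to 9 weeks in males was not tested, although the median log2 fold change was -3.02 at 6 weeks and -2.41 at 9 weeks. The interaction of genotype and age called 0 of 8 members by edgeR and by DESeq2 in females at 9 or 12 against 6 weeks and in males at 6 or 9 against 4 weeks, and 0 had an unadjusted p under 0.05 in any of them. Among all genes 0.0644% and 0.322% were called either way in females and 0.00585% and 4.92% in males. The sexes were compared through the genotype effects, and edgeR and DESeq2 called 0 members at 6 weeks and 0 at 9 weeks, where 7.63% and 8.68% of all genes were called either way. At 9 weeks all 8 differences were negative, which is a larger fall in females, from -0.77 for Gata3 to -0.14 for Isl1, and 2 had an unadjusted p under 0.05. Sex and count table are the same split, and only the genotype effects, taken within a table, entered this comparison.

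In normalised CPM, a level relative to the rest of the gland's RNA, the members were lower still in castrated male cKO glands. All 8 were called lower in castrated than in sham-operated animals by edgeR, against 23.8% of all genes. The castrated libraries lay below the sham libraries for all 8, and for 22% of all genes. The median log2 fold change was -1.68 against -0.01 over all genes. Gata2 measured 8.598, 7.87, 6.77 and 6.22 CPM in castrated animals, against 17.96, 18.8, 22.9 and 17.8 CPM in sham-operated animals, a log2 fold change of -1.40 ± 0.15 (edgeR adjusted p = 5.47e-05). Sham values of Gata2 were close together, whereas those of most other members were spread over a wider range.

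Hand2 measured 7.45, 5.84, 4.68 and 4.95 CPM in castrated animals, against 25.1, 14.4, 21.4 and 10.7 CPM in sham-operated animals (log2 fold change -1.64 ± 0.27, edgeR adjusted p = 0.000761). Sham replicate 4 was the lowest of its group for all 8 members and sham replicate 1 the highest for 7 of them. Without sham replicate 1, which stood apart in its mitochondrial share, the log2 fold changes ran from -1.78 for Tfap2b to -0.91 for Hand1 (edgeR adjusted p = 0.0108), and all 8 members stayed called. Tfap2b had the largest change, at 1.33, 1.66, 0.853 and 1.04 CPM in castrated animals, against 7.30, 3.82, 6.06 and 2.69 CPM in sham-operated animals (-2.02 ± 0.35, adjusted p = 0.00101 by edgeR). Hand1 had the smallest, at 2.88, 2.25, 1.82 and 2.48 CPM in castrated animals, against 6.68, 5.61, 4.37 and 3.33 CPM in sham-operated animals (-1.08 ± 0.25, adjusted p = 0.00594 by edgeR). All 8 stayed called when any of the 8 libraries was left out.

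**Figure D5:**
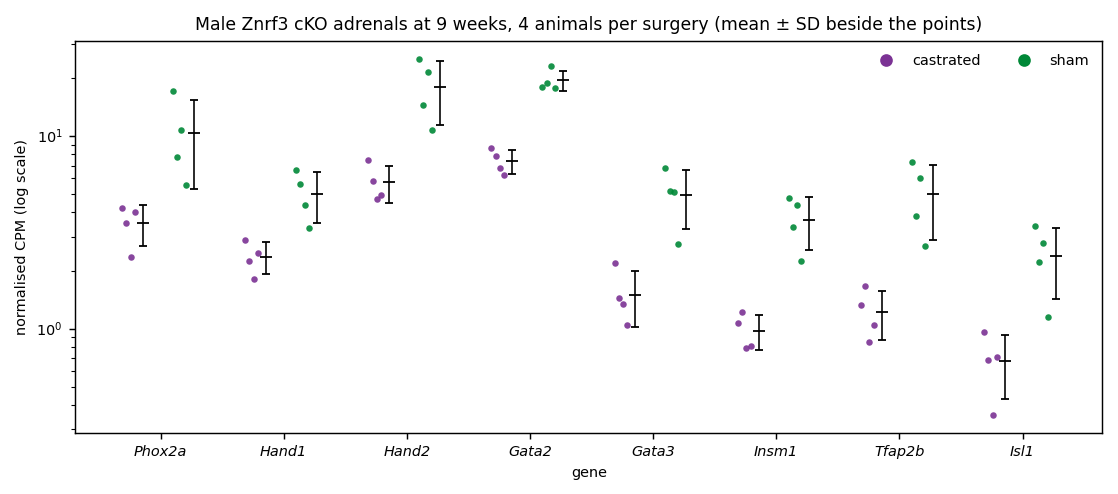
Normalised CPM on a log axis of each member in male Znrf3 cKO adrenals at 9 weeks, 1 point per animal, castrated left of sham-operated, with the mean ± SD beside the 4 points. The castrated points lie below the sham points for each member, as for Gata2 at 6.22 to 8.598 CPM in castrated and 17.8 to 22.9 CPM in sham-operated animals.

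Relative to the 12 catecholamine and granule genes 0 of the 8 members were called in castrated against sham-operated glands by edgeR, with 69.1% of all genes called higher and 2.61% lower. The log2 changes of the ratio ran from -0.69 ± 0.44 for Tfap2b to 0.19 ± 0.42 for Hand1, with a median of -0.39. With standard errors this wide the fit could miss changes of such size. The ratio of Gata2 was 39.3% ± 7.22 in castrated and 42.3% ± 7.65 in sham-operated glands (SD, n = 4 each; log2 change -0.11 ± 0.37, adjusted p = 0.8 by edgeR). The change of Gata2 relative to the 12 genes in the genotype comparisons was not tested against that between the surgeries. Of the 12 genes 11 were lower in castrated glands, with Cyb561 not called, at 93% of its sham level. Reporter alleles were mixed. Every member was lower in the castrated animal without a reporter than in the sham animal without one (1 each). Each was also lower in the castrated eYFP animal than in the mean of 2 sham eYFP animals. No such match was made for mTmG, for which the castrated animals were homozygous and the sham animal heterozygous. Of the other cell types, 5 of 5 fibroblast and capsule markers were lower, at 215 to 310 CPM in castrated and 588 to 708 CPM in sham glands. Of 5 macrophage markers 4 were lower, at 257 to 422 CPM in castrated and 685 to 1341 CPM in sham glands. Of 6 endothelial markers 5 were lower, at 708 to 788 CPM in castrated and 813 to 1149 CPM in sham glands. All 5 Schwann and sustentacular markers were lower, at 6.66 to 9.82 CPM in castrated and 12.3 to 33.2 CPM in sham glands. Of 6 T cell and innate lymphoid cell markers 3 were lower, at 12.2 to 16.3 CPM in castrated and 43.1 to 60.9 CPM in sham glands. Sympathetic neuron markers were lower for 3 of 5, at 5.34 to 9.59 CPM in castrated and 10.3 to 20.8 CPM in sham glands. Of 6 cortical markers 4 were higher and 1 lower, and their sum was 47200 to 50470 CPM in castrated and 21000 to 31660 CPM in sham glands. The part of these cell types in the result was not tested.

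Of 17 further transcription factors, listed for sympathoadrenal and neuroendocrine cells, 14 passed the filter in females and males. Among these, 8 to 10 were lower in each comparison of cKO with control. Those lower in all 6 included Insm2, Eya1, Tlx2, Myt1, Myt1l, St18 and Scrt1. Eya1 averaged 1.03 ± 0.16 CPM in cKO females at 6 weeks and 7.10 ± 3.09 CPM in control females (SD, n = 4 each), a log2 fold change of -2.79 ± 0.27. Epas1, the hypoxia-inducible factor that endothelium also expresses, was lower at 6 and 9 weeks in females by a small amount (log2 fold change -0.50 ± 0.09 and -0.44 ± 0.09). Those called higher were Sox4 in males at 6 weeks and Rest, a repressor of neuronal genes, in males at 9 weeks. In castrated against sham-operated males 13 were tested, 5 were lower and 2, Mycn and Prox1, were higher.

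Of 10 paralogs of the members 4 passed the filter (Insm2, Gata1, Gata4 and Gata6), and in each genotype comparison Insm2 was called lower and no other was. In castrated against sham-operated males Gata1 and Gata4 were called lower. Gata6, the GATA factor of the adrenal cortex, averaged 126.4 ± 16.02 CPM in cKO females at 6 weeks and 93.5 ± 9.03 CPM in control females (SD, n = 4 each), a log2 fold change of 0.43 ± 0.11 (edgeR adjusted p = 0.00346). In males Gata6 was called higher at 4 and 6 weeks and not at 9 weeks (0.23 ± 0.12). Gata1, the erythroid and mast cell GATA factor, was called higher in cKO males at all 3 ages. At 6 weeks it averaged 10.5 ± 2.29 CPM in cKO males and 2.45 ± 0.764 CPM in control males, a log2 fold change of 2.08 ± 0.36, and in castrated males it averaged 0.291 ± 0.120 CPM, against 4.998 ± 2.19 CPM in sham-operated males. In females Gata1 stayed at or below 0.635 CPM in every library of cKO and control glands.

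Within groups the members varied alike from animal to animal, as a description over the 24 female and 24 male libraries after the group means were taken out. Among the 12775 genes compared (average log2 CPM of 1 or more), the gene most like Phox2a was Dbh (Pearson r = 0.944 in females and 0.877 in males), which encodes dopamine beta-hydroxylase. The genes most like Hand2 were Dbh (r = 0.913 and 0.879) and Tfap2b (r = 0.872 and 0.906). Hand1 was most like Chga (r = 0.880 and 0.841), Gata3 most like Fam163a (r = 0.879 and 0.891), Insm1 most like Tfap2b (r = 0.805 and 0.785) and Isl1 most like Rab3b (r = 0.858 and 0.748). Gata2 was most like Slc18a1, the vesicular monoamine transporter gene of chromaffin cells (r = 0.816 and 0.770). With the endothelial gene Pecam1 its r was 0.186 in females and -0.420 in males, and with Cdh5 0.164 and -0.383. The r of the other members with Pecam1 was lower in females, from -0.288 (Isl1) to 0.0634 (Hand2). In males it ran from -0.51 (Hand1) to -0.221 (Insm1), a range that holds the value of Gata2. The libraries of a table share depth range and scaling, so these values describe the libraries only.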

How the data were processed

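The deposited tables of females, males and the surgery series hold raw counts per Ensembl gene. The submitters' processing notes list GRCm38 and these tools without saying what each did: cutadapt (1.16), STAR (2.7.6a), RSEM (1.6.3), featureCounts and DESeq2 (1.30.1). Gene positions and lengths came from GENCODE M21. Counts were tested in R 4.3.3 with edgeR 4.0.16: filterByExpr at a minimum count of 10, TMM scaling, and a quasi-likelihood test over all groups of a table in 1 fit. P-values were adjusted by Benjamini-Hochberg over the 18645 (females), 17086 (males) or 16961 (surgery series) genes tested, at 0.05. Standard errors are approximate, taken as the size of the log2 fold change over the root of F. Changes of the genotype effect with age or sex were interaction terms. Per the series' design text samples are separate mice, so p-values measure the spread between animals. Sham animals share 1 number in the labels and were given replicate numbers only as names. The test was checked on simulated counts.

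The members, gene lists and marker lists were chosen with earlier results of these data known. All 8 members are named, and the genes most like each were those whose smaller within-group correlation of the 2 tables was highest. Alternatives were DESeq2 1.42.0, RLE scaling, no filter, a filter of CPM 5 in 4 libraries, fits of only the groups compared, a replicate block, the range of library numbers, each library left out in turn, another denominator, and the longest transcript as length.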

Additional observations from a re-analysis of the deposited data

Results flagged for a closer look

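In the group of control females at 12 weeks, Hand1 in replicate 2 stood at 22.37 CPM, far from the other 3 libraries (17.65, 18.22 and 18.44 CPM). In control females at 9 weeks, Phox2a in replicate 4 stood at 22.95 CPM, against 20.61, 20.7 and 20.71 CPM in the others. These were the 2 of 112 sets of 4 values (8 members in 14 groups) in which 1 library lay beyond Dixon's 95% limit for 4 samples, where chance flags about 5% of sets. Both libraries lay above every cKO library of the same age, and without either of them all 8 members stayed called lower in cKO.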

How the results depend on the processing

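All 8 members stayed called lower in the 6 comparisons of cKO with control under every alternative run, except Hand1 in males at 9 weeks with library numbers up to 24 only, and leaving out each library in turn gave 8 throughout, also for castration. With the filter of CPM 5 in 4 libraries 3 members were called lower in castrated males, because Hand1, Gata3, Insm1, Tfap2b and Isl1 did not pass it. In cKO females at 12 against 6 weeks 1 member was called; it was 2 with that filter, 4 with DESeq2 and 0 to 4 on leaving out each library. At 9 against 6 weeks it was 0, and 0 to 1 on leaving out each library. In cKO males at 9 against 4 weeks 5 were called; it was 2 with the range of library numbers in the fit, 2 with numbers up to 24 only, 2 without a filter, 3 with the replicate block and 0 to 4 on leaving out each library. The cause of these changes was not tested. Replicate numbers did not pair the samples: deviations of same-numbered cKO and control libraries correlated at -0.253 to 0.107 over 24 pairs. The block moved no other count of members by more than 1.5 times, and under it the ratios of Hand1 in females at 6 weeks (0.52, edgeR adjusted p = 0.0676) and Gata3 at 9 weeks (-0.53, edgeR adjusted p = 0.0646) lost their call.

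Over all genes, 3275 were called either way in males at 4 weeks, against 1701 with the range of library numbers in the fit and 678 with numbers up to 24 only. At 6 weeks it was 3435, against 1613 with the range in the fit, and at 9 weeks 4110, against 624 with numbers up to 24 only. Of the calls at 4 weeks 32.8% were higher, against 49.6% with the CPM 5 filter, 13.5% with the range in the fit and 6.34% with numbers up to 24 only. Male libraries are the shallowest, and Isl1 had as few as 12 counts in 1 of them.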
